A study of Mus musculus with 10 samples.

Results

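The genes described here encode the enzymes and carriers of fatty acid oxidation, together with genes that the nuclear receptor PPARα induces. They were chosen by name from knowledge of the pathway, with earlier results of these data known, as genes with a probe set annotated to a single gene symbol. The 34 members were 5 genes of the carnitine shuttle, 11 of mitochondrial beta-oxidation, 7 of peroxisomal beta-oxidation, 3 of electron transfer, 7 induced by PPARα and 1 acyl-CoA synthetase. The array carried 18193 genes with such a probe set, of which 12736 were bright enough to be tested, and all 34 members were among those tested.

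Total RNA came from livers of mice labelled ApoE-/-, a genotype that lacks apolipoprotein E. Per the labels, 5 mice were infected with a control adenovirus expressing GFP and 5 with an adenovirus expressing dn-cJun, a dominant negative form of the transcription factor cJun. Each RNA was hybridised to 1 Affymetrix array, so the spread within a group is a spread between mice, and the number of arrays limits the precision. Strain, age, sex, vector promoter, virus dose and time after infection were not given in the sources used here, and an adenovirus reaches a mixture of cells. Signals are given as log2(intensity + 16) after quantile normalization, and a log2 fold change is the mean of the arrays labelled dn-cJun minus the mean of the controls.

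Fatty acids are activated to acyl-CoA, and long chains enter the mitochondrial matrix as carnitine esters through the carnitine shuttle. Beta-oxidation then shortens them by repeated dehydrogenation, hydration, a second dehydrogenation and thiolysis, and the electron transfer flavoprotein passes electrons from the acyl-CoA dehydrogenases to the respiratory chain. Peroxisomes shorten very long and branched chains, and in liver PPARα, activated in fasting by fatty acids, raises the transcription of many of these enzymes.

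Some features of the whole series bear on every value given here. The Apoe probe set read 10.25 ± 0.59 (SD, n = 5) in the controls and 15.66 ± 0.21 (SD, n = 5) under the dn-cJun label, and with this difference of 5.41 the arrays labelled dn-cJun went against the shared ApoE-/- label. Each group is therefore named by its label only, and every direction is drawn from labels that this signal contradicts. The Apoe signal divided the arrays exactly as the dn-cJun label does, so it cannot be told apart from that label in any comparison here. Jun itself differed by -0.07 (limma adjusted p = 0.890), and whether its probe set reads the vector's product was not given in the sources used here. Controls 14 and 15 stood apart from the other 8 arrays in sex-linked genes. Xist, expressed from the inactive X chromosome of females, read 13.71 and 13.63 there against 5.90 to 6.72 elsewhere, and the Y-linked Eif2s3y 5.22 and 4.08 against 10.58 to 11.13. These 2 arrays thus had the pattern of female mice and the other 8 that of male mice, so sex was unbalanced between the groups. The male-biased liver gene Cyp4a12a read 7.08 and 6.97 in controls 14 and 15, between 13.01 and 13.36 in controls 11 to 13, and between 11.22 and 13.03 under the dn-cJun label. Of the 9 hepatocyte markers tested, 8 were higher and 1 lower, and 0 passed the threshold. At a limma unadjusted p under 0.05, 2 were higher, Tat at 0.79 and Hnf4a at 0.21, and 0 lower. At that level 7.42% of all tested genes were higher and 7.47% lower. The log2 summed level of the 9 ran from 18.49 to 18.64 over control mice and from 18.60 to 18.70 over mice labelled dn-cJun. Of 11 Kupffer cell and macrophage markers tested, 3 were higher and 8 lower. Of these 2 passed, both lower, Cd5l at -0.57 and Lyz2 at -0.70, where 0.777% of all tested genes passed. The log2 summed level of the 12 with a probe set overlapped, from 14.86 to 15.52 over control mice and 14.85 to 15.10 under the dn-cJun label. None of the 4 adipocyte markers with a probe set was above the filter, and 2 of 6 striated muscle markers were. The 3' minus 5' signal of Actb, a measure of RNA integrity, ran from 0.348 to 0.446 over control mice and from 0.473 to 0.634 over mice labelled dn-cJun (two-sided exact permutation test, p = 0.00794, adjusted 0.0159). That of Gapdh overlapped between the groups (exact permutation p = 0.405). The part of these differences in the results was not tested.

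Of the 34 members, 25 had a higher mean and 9 a lower mean in the arrays labelled dn-cJun, against 50.3% of all tested genes with a higher mean. The median member log2 fold change was 0.16, against 0.00 over all tested genes. No member passed an adjusted p of 0.05 in limma, where 99 of 12736 genes, 0.777%, did. At an unadjusted p under 0.05, 12 members were higher and 0 lower, against 7.42% of all tested genes higher and 7.47% lower. The group ranges were separate for 3 members, Acadvl, Acaa2 and Etfa, all higher, and for 0 members lower, where 2.1% of all tested genes were separate and higher and 2.13% separate and lower. In bulk liver, fewer cells of a type and less RNA per cell cannot be told apart.

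**Figure D1:**
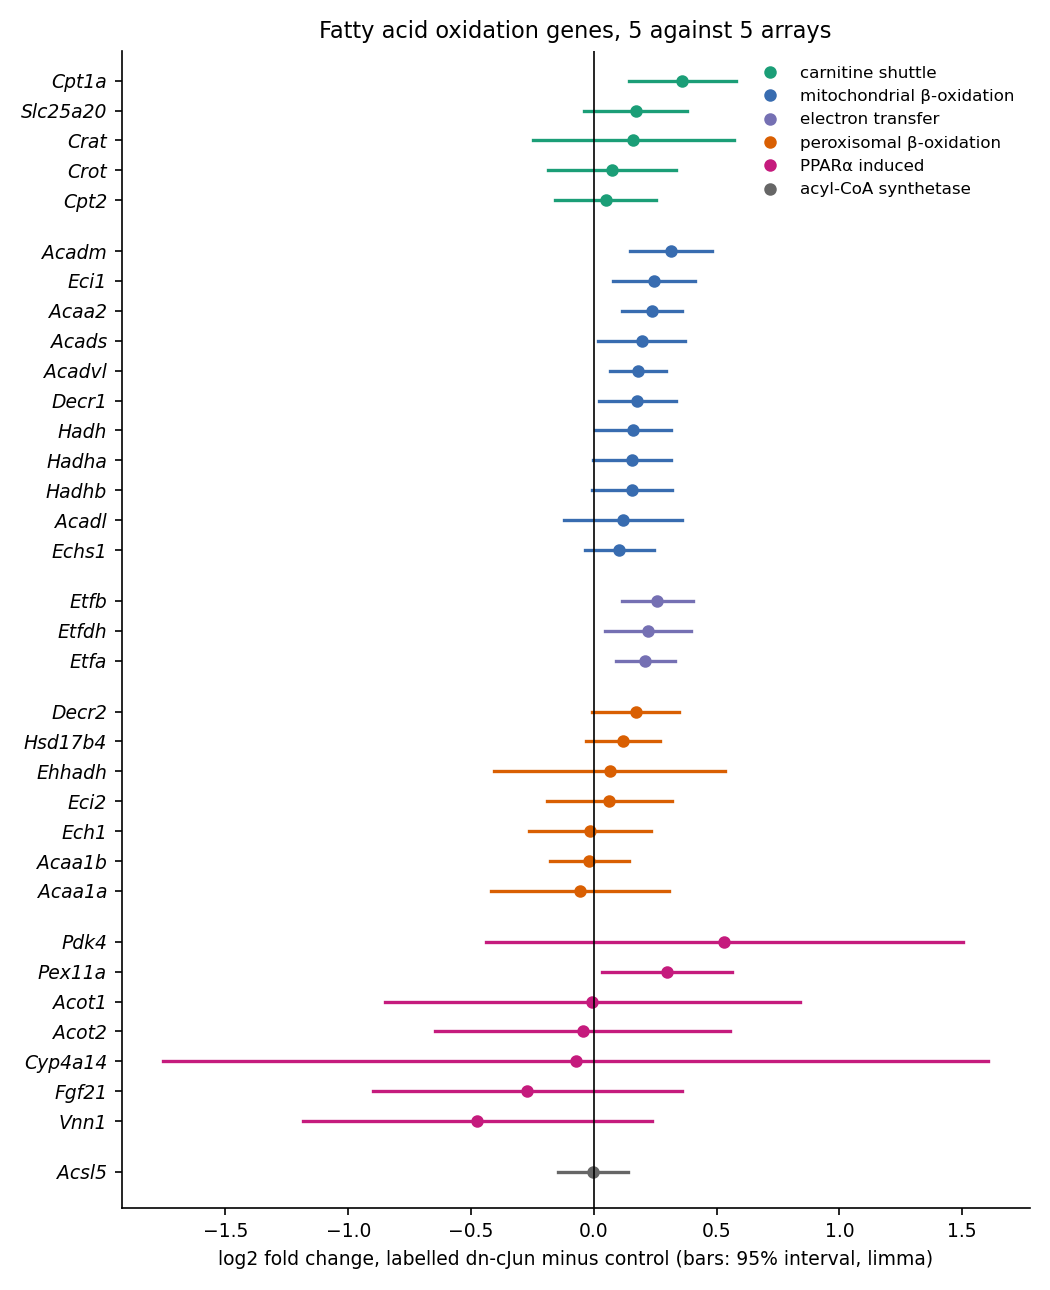
Log2 fold change of each of the 34 members, arrays labelled dn-cJun minus controls, with its 95% confidence interval from limma, grouped by class. All 11 mitochondrial and all 3 electron transfer members lie above 0, while the members induced by PPARα run from -0.47 to 0.53 with the widest intervals.

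The classes differed in where their members lay and in how much single mice varied. All 11 mitochondrial members were higher, from 0.10 to 0.31 with a median of 0.18, and 7 of them had an unadjusted p under 0.05. All 3 electron transfer members were higher, from 0.21 to 0.26 with a median of 0.22, and all 3 had an unadjusted p under 0.05. The 5 carnitine shuttle members were all higher, from 0.05 to 0.36 with a median of 0.16, and 1 had an unadjusted p under 0.05. Of the 7 peroxisomal members, 4 were higher and 3 lower, with a median of 0.06, a range from -0.06 to 0.17 and 0 at an unadjusted p under 0.05. Of the 7 members induced by PPARα, 2 were higher and 5 lower, with a median of -0.05 and 1 at an unadjusted p under 0.05. These are descriptions of the classes, and the differences between them were not tested.

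**Figure D2:**
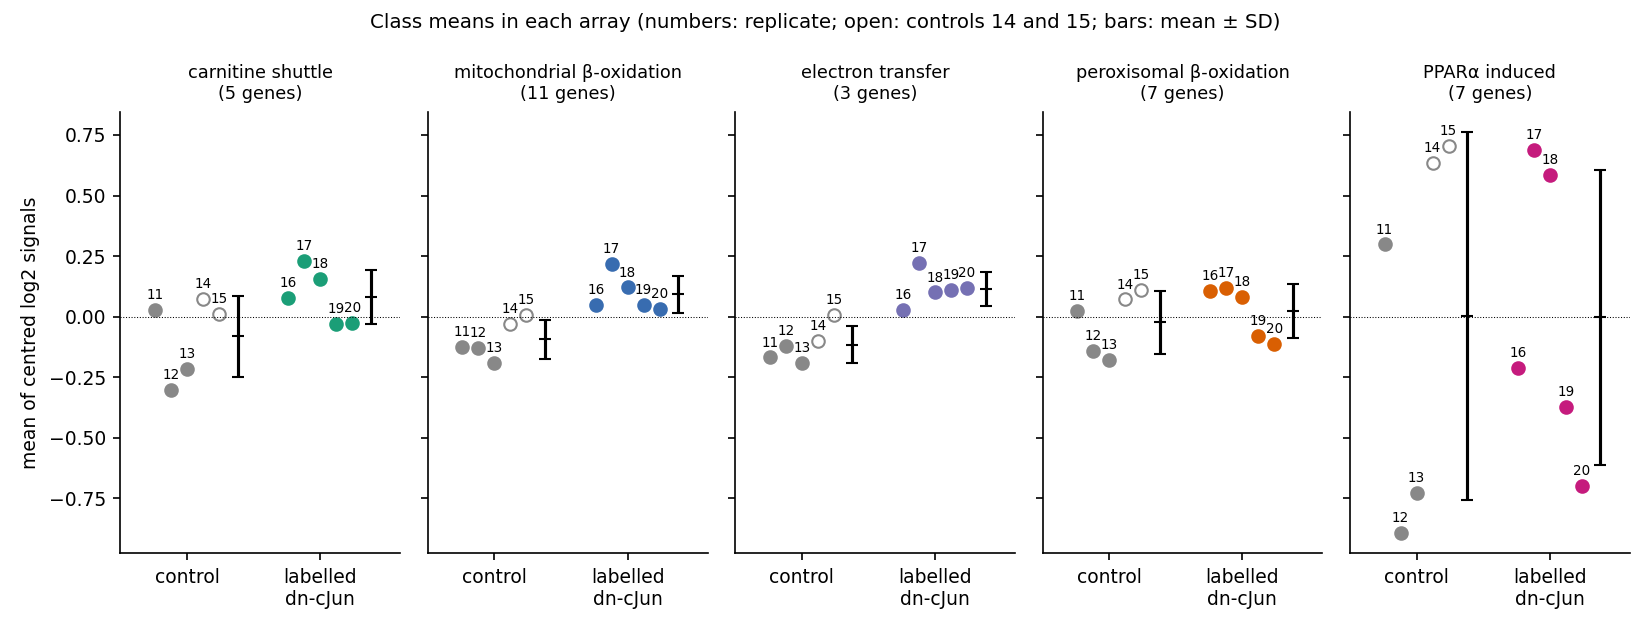
Mean log2 signal of each class on each of the 10 arrays, after each member was centred on its own mean over all arrays. Numbers name the mice, open points are controls 14 and 15, and bars are the group mean ± SD. Controls 12 and 13 are the lowest arrays in the carnitine shuttle, peroxisomal and PPARα classes. In the mitochondrial and electron transfer classes the points of the groups do not overlap.

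The mitochondrial matrix enzymes carry out each turn of the beta-oxidation cycle. Acaa2, the mitochondrial 3-ketoacyl-CoA thiolase, which releases acetyl-CoA at the last step, had the smallest p of the members. It read 14.34, 14.48, 14.31, 14.38 and 14.43 in controls 11 to 15 and 14.51, 14.66, 14.62, 14.63 and 14.70 in the arrays labelled dn-cJun 16 to 20. Every array labelled dn-cJun lay above every control. Its log2 fold change was 0.24 (SE 0.06, limma adjusted p = 0.0703). Without control 12 it passed the threshold, at 0.26 (limma adjusted p = 0.0445), and over all fits that left out 1 array its adjusted p ran from 0.0445 to 0.150. Over the other alternatives its limma adjusted p ran from 0.0505 to 0.482.

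Acadm, the medium-chain acyl-CoA dehydrogenase, takes the first dehydrogenation of medium chains. Its signal was 14.08, 13.82, 13.83, 13.95 and 13.96 in controls 11 to 15 and 14.34, 14.41, 14.28, 14.16 and 14.03 in the arrays labelled dn-cJun 16 to 20. The groups overlapped only between control 11 and dn-cJun 20. The log2 fold change was 0.31 (SE 0.08, limma adjusted p = 0.0858). It passed the threshold under 2 other settings, at 0.42 with each array divided by its own intensity step (adjusted p = 0.0466) and at 0.35 with limma's array weights (adjusted p = 0.0347). Over all alternatives other than leaving out 1 array its limma adjusted p ran from 0.0347 to 0.211.

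Acadvl, the very-long-chain acyl-CoA dehydrogenase of the inner membrane, gave 13.52, 13.55, 13.54, 13.67 and 13.63 in controls 11 to 15. The arrays labelled dn-cJun 16 to 20 gave 13.73, 13.82, 13.73, 13.77 and 13.77. The groups were separate, and the pooled SD within groups, 0.055, was the smallest in its class. Its log2 fold change was 0.18 (SE 0.05, limma adjusted p = 0.146).

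Acads, the short-chain acyl-CoA dehydrogenase, also had an unadjusted p under 0.05. It read 11.29, 11.63, 11.60, 11.52 and 11.51 in controls 11 to 15 and 11.55, 11.80, 11.82, 11.64 and 11.71 in the arrays labelled dn-cJun 16 to 20. Control 11 was the lowest array, and dn-cJun 16 lay within the control range. The log2 fold change was 0.19 (SE 0.08, limma adjusted p = 0.287). Acadl, the long-chain acyl-CoA dehydrogenase, had the widest within-group spread of the class (pooled SD 0.205) and a log2 fold change of 0.12 with overlapping groups (limma adjusted p = 0.667).

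Eci1 and Decr1 handle the double bonds of unsaturated fatty acids, as an enoyl-CoA isomerase and a 2,4-dienoyl-CoA reductase. Eci1 read 12.62, 12.73, 12.59, 12.82 and 12.85 in controls 11 to 15 and 12.84, 13.15, 12.92, 13.06 and 12.88 in the arrays labelled dn-cJun 16 to 20. Only dn-cJun 16 lay below the highest control, and the log2 fold change was 0.25 (SE 0.08, limma adjusted p = 0.158). Decr1 read 13.84, 13.62, 13.57, 13.77 and 13.76 in controls 11 to 15 and 13.86, 14.06, 13.93, 13.85 and 13.75 in the arrays labelled dn-cJun 16 to 20. Only dn-cJun 20 lay within the control range, and the log2 fold change was 0.18 (SE 0.07, limma adjusted p = 0.274).

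Hadh, the 3-hydroxyacyl-CoA dehydrogenase of medium and short chains, takes the second dehydrogenation. It read 14.84, 14.78, 14.68, 14.97 and 15.06 in controls 11 to 15 and 15.02, 15.11, 15.07, 14.91 and 15.003 in the arrays labelled dn-cJun 16 to 20. Controls 14 and 15 lay among the arrays labelled dn-cJun, and the log2 fold change was 0.16 (SE 0.07, limma adjusted p = 0.326). Hadha and Hadhb, the subunits of the trifunctional protein of long chains, differed by 0.16 (limma adjusted p = 0.343) and 0.15 (limma adjusted p = 0.364). Echs1, the short-chain enoyl-CoA hydratase, differed by 0.10 (limma adjusted p = 0.487).

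Hadha and Hadhb are transcribed away from each other from starts that lie 273 bases apart. The stretch that their promoter windows share lies between these starts and is shown because both windows hold it. Whether it bears on the log2 fold change of either gene was not tested. The stretch lies at chr5:30155003-30155230 (GRCm38.p6, RefSeq) and is printed on the strand of Hadhb, all in lower case since none of the motifs searched lies in it.
Hadha and Hadhb shared stretch: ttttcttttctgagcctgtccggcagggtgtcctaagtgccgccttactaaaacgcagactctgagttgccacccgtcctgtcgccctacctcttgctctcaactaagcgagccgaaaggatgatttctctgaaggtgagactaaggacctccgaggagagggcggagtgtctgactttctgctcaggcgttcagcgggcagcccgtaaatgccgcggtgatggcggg

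Promoter windows, each running from 250 bases before to 50 bases after the RefSeq start, were available for 28 members and were searched on both strands. The hexamer that nuclear receptors recognise, AGGTCA, was in 4 of 28 windows, or 14.3%, against 16.3% of 32851 windows of all genes. The AP-1 site TGANTCA, to which Jun family dimers bind, was in 1 of 28, or 3.57%, against 7.81% of all. A direct repeat of AGGTCA with 1 base between, the element that PPARα binds with its partner, was in 0 of 28 and in 0.0396% of all windows. With any base allowed at the fourth place of each copy, it was in 0 of 28 and in 0.381% of all. The hexamer is part of the direct repeat, and a match is a description of letters, not of a bound site.

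The windows of Acadvl, Acadm and Cpt1a are shown because these genes had the hexamer and an unadjusted p under 0.05, and Acadvl also held the only AP-1 site. Capitals mark the motifs, and each window is printed 5′ to 3′ on the strand of its gene (GRCm38.p6, RefSeq). In Acadvl, chr11:70015379-70015678 on the minus strand, the hexamer is at -87 to -82 and the AP-1 site at 17 to 23, counted from 1 at the start. In Acadm, chr3:153944594-153944893 on the minus strand, the hexamer is on the opposite strand at -249 to -244. In Cpt1a, chr19:3323051-3323350 on the plus strand, it is on the opposite strand at -94 to -89.
Acadvl: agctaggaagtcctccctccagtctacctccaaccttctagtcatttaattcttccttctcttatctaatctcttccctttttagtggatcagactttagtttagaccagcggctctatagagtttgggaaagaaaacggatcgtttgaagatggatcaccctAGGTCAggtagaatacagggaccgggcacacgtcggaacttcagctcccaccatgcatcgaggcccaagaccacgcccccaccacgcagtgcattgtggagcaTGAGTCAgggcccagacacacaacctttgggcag
Acadm: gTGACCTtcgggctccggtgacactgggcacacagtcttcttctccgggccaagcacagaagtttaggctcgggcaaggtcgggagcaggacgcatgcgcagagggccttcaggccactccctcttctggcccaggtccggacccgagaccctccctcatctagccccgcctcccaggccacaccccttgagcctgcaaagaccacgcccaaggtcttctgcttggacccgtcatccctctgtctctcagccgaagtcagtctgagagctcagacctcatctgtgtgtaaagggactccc
Cpt1a: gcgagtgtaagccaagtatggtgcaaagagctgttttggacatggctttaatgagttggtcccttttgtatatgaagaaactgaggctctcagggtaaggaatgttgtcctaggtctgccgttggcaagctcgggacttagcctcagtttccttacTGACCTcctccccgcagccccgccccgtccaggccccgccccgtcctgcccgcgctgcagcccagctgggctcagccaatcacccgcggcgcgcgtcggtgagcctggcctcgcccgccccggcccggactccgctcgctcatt

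The electron transfer flavoprotein and its oxidoreductase take the electrons of the acyl-CoA dehydrogenases to ubiquinone. Etfb, its beta subunit, read 14.01, 13.90, 14.04, 13.84 and 14.05 in controls 11 to 15 and 14.05, 14.33, 14.21, 14.30 and 14.25 in the arrays labelled dn-cJun 16 to 20. Only dn-cJun 16 lay within the control range, and the log2 fold change was 0.26 (SE 0.07, limma adjusted p = 0.0994). Etfa, the alpha subunit, read 13.51, 13.61, 13.52, 13.67 and 13.66 in controls 11 to 15 and 13.77, 13.90, 13.79, 13.77 and 13.79 in the arrays labelled dn-cJun 16 to 20. The groups were separate, and the log2 fold change was 0.21 (SE 0.06, limma adjusted p = 0.111). Etfdh, the oxidoreductase in the inner membrane, read 12.45, 12.60, 12.35, 12.66 and 12.78 in controls 11 to 15 and 12.74, 12.91, 12.78, 12.73 and 12.79 in the arrays labelled dn-cJun 16 to 20. Control 15 lay among the arrays labelled dn-cJun, and the log2 fold change was 0.22 (SE 0.08, limma adjusted p = 0.222).

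**Figure D3:**
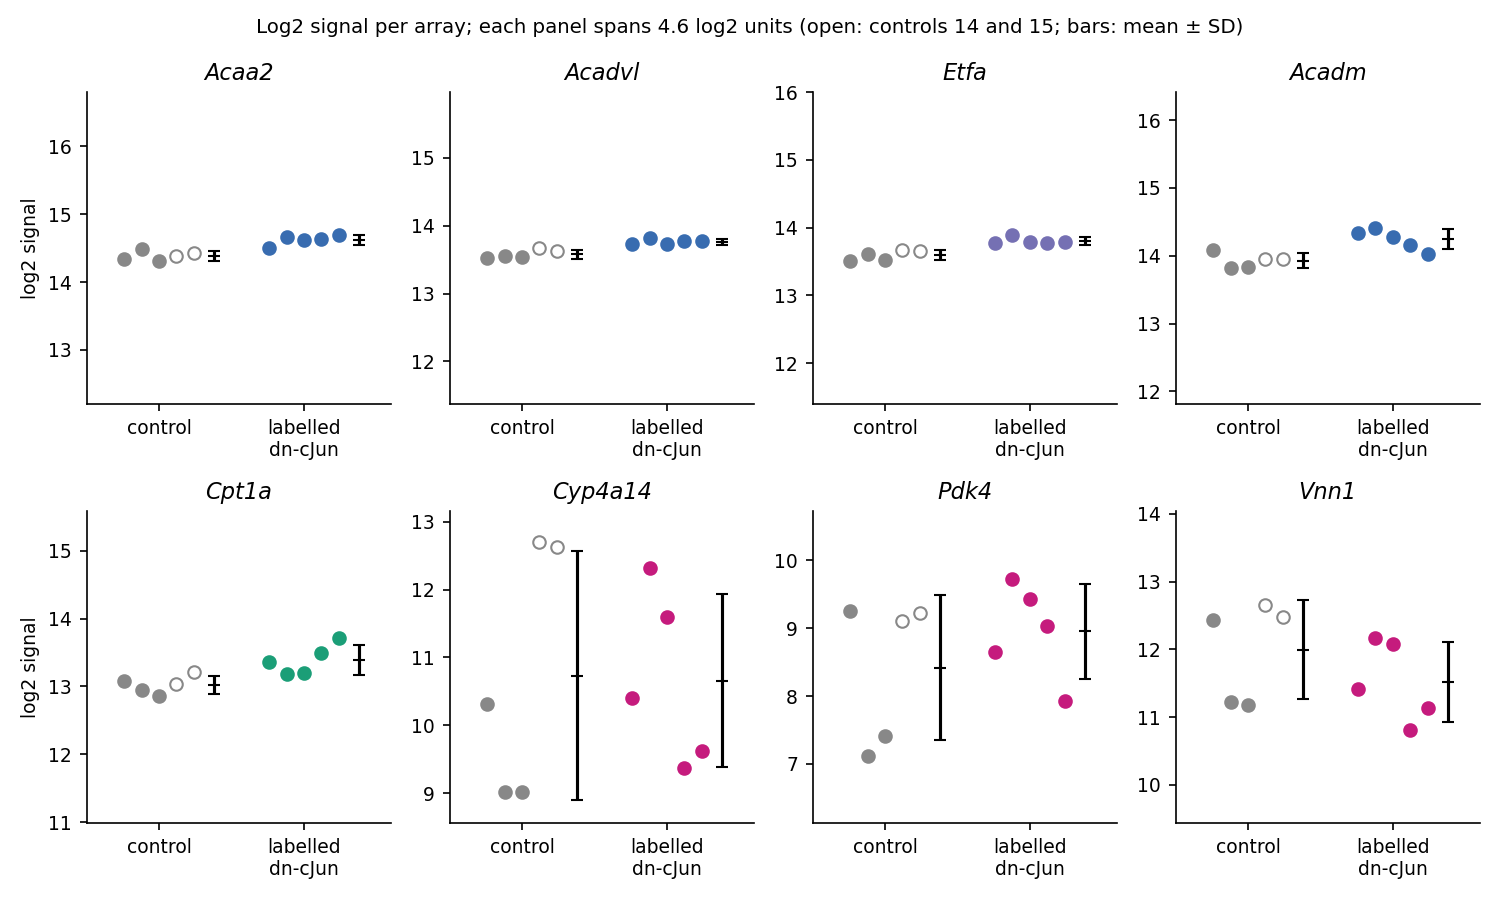
Log2 signal of single members on each array, with 1 point per mouse, open points for controls 14 and 15, and bars for the group mean ± SD. Acaa2 and Etfa show separate groups, while Cyp4a14 runs from 9.01 to 12.70 in the controls and from 9.36 to 12.32 in the other group.

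In the carnitine shuttle, Cpt1a, the carnitine palmitoyltransferase of the outer membrane and the controlled step of entry, had the highest log2 fold change. It read 13.08, 12.95, 12.86, 13.04 and 13.21 in controls 11 to 15 and 13.36, 13.19, 13.20, 13.49 and 13.71 in the arrays labelled dn-cJun 16 to 20. Control 15 lay just above dn-cJun 17 and 18, and dn-cJun 20 was the highest array. The log2 fold change was 0.36 (SE 0.10, limma adjusted p = 0.123). Slc25a20, the translocase that carries acylcarnitine across the inner membrane, differed by 0.17 (limma adjusted p = 0.437), and Cpt2, which returns the acyl group to CoA in the matrix, by 0.05 (limma adjusted p = 0.858). Crat, the carnitine acetyltransferase, differed by 0.16 (limma adjusted p = 0.750), and Crot, the octanoyltransferase that exports chains from peroxisomes, by 0.07 (limma adjusted p = 0.8286).

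The peroxisomal enzymes gave smaller values. Decr2, the peroxisomal 2,4-dienoyl-CoA reductase, had the smallest p of its class. It read 12.23, 12.23, 12.07, 12.51 and 12.35 in controls 11 to 15 and 12.53, 12.50, 12.50, 12.40 and 12.31 in the arrays labelled dn-cJun 16 to 20. Controls 14 and 15 lay among the arrays labelled dn-cJun, and the log2 fold change was 0.17 (SE 0.08, limma adjusted p = 0.359). Ehhadh, the bifunctional hydratase and dehydrogenase and a classic PPARα target, read 13.31, 12.16, 12.43, 13.09 and 13.07 in controls 11 to 15. In the arrays labelled dn-cJun 16 to 20 it read 13.05, 13.19, 13.15, 12.62 and 12.37. Controls 12 and 13 and dn-cJun 19 and 20 were low, and the highest array was control 11. Its log2 fold change was 0.06, with a 95% confidence interval from -0.41 to 0.53 (limma adjusted p = 0.919). Hsd17b4, the other bifunctional protein, differed by 0.12, the isomerase Eci2 by 0.06, and Ech1, a dienoyl-CoA isomerase, by -0.02. The thiolases Acaa1a and Acaa1b differed by -0.06 and -0.02 on the brightest probe set of each. A second probe set of Acaa1a differed by 0.34 (limma unadjusted p = 0.00149, adjusted p = 0.129 in a fit over every probe set). It became the brightest without control 12 or control 13, where Acaa1a was at 0.32 and 0.33. These genes are close copies, and probe sets that could not separate them differed by 0.16 and 0.12.

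The members induced by PPARα varied most between mice of 1 group. Their pooled SDs ran from 0.228 for Pex11a to 1.58 for Cyp4a14, with a class median of 0.661, where the median over all tested genes was 0.225 and that of the mitochondrial class 0.120. The control SDs take in controls 14 and 15, which had the pattern of female mice. These arrays lay above controls 11 to 13 by 0.21 for Pex11a up to 3.22 for Cyp4a14. For Cyp4a14 the SD was 1.84 in the controls and 1.27 under the dn-cJun label. The part of sex in this spread was not tested. In the controls, array 12 was among the 2 lowest for 7 of 7 members and array 15 among the 2 highest for 7 of 7. In the arrays labelled dn-cJun, arrays 17 and 18 were the 2 highest for 7 of 7 members and array 20 was among the 2 lowest for 7 of 7.

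**Figure D4:**
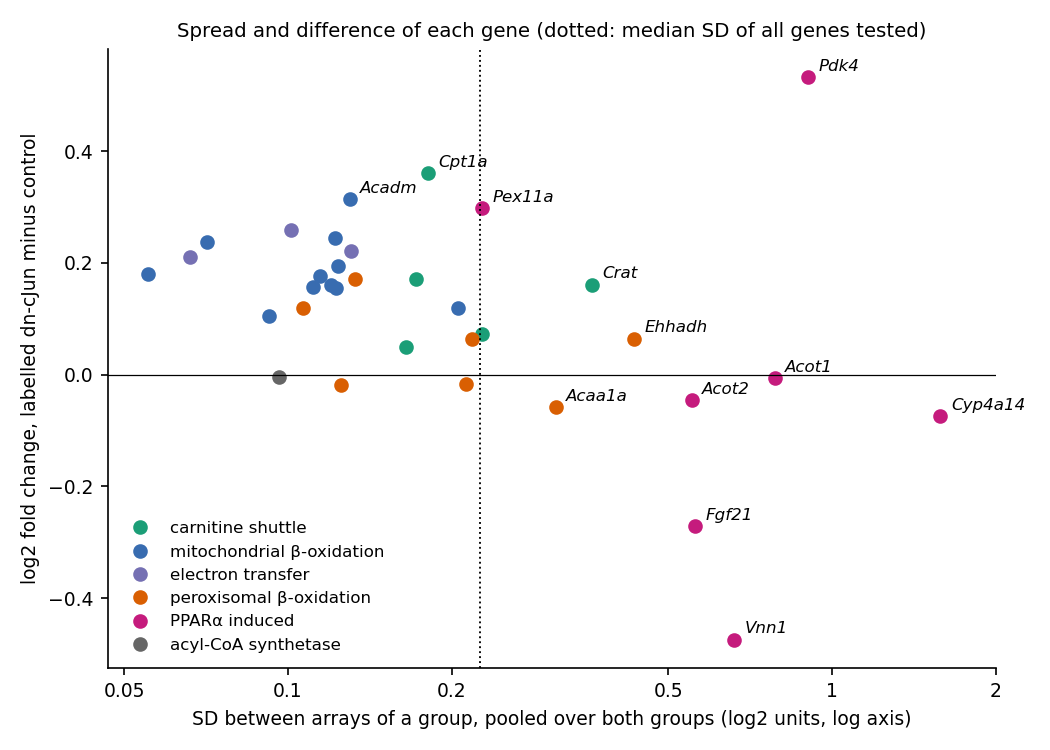
Pooled within-group SD of each member against its log2 fold change, coloured by class, with the SD on a log axis and a dotted line at the median SD of all tested genes, 0.225. The mitochondrial and electron transfer members lie at SDs up to 0.205 with positive log2 fold changes, and Cyp4a14 lies at an SD of 1.58 with a log2 fold change of -0.07.

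Cyp4a14, an omega-hydroxylase of fatty acids, read 10.31, 9.01, 9.01, 12.70 and 12.63 in controls 11 to 15. In the arrays labelled dn-cJun 16 to 20 it read 10.40, 12.32, 11.60, 9.36 and 9.61. Both groups held arrays below 10 and above 12, and controls 14 and 15 were the highest of all. The log2 fold change was -0.07, with a 95% confidence interval from -1.75 to 1.61 (limma adjusted p = 0.978). Controls 14 and 15 are those that stood apart in sex-linked genes, and in Cyp4a12a, a male-biased gene of the same family.

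Pdk4, the kinase that switches off pyruvate dehydrogenase, read 9.26, 7.12, 7.41, 9.10 and 9.22 in controls 11 to 15 and 8.65, 9.73, 9.43, 9.03 and 7.93 in the arrays labelled dn-cJun 16 to 20. Controls 12 and 13 were the lowest arrays, and the log2 fold change was 0.53 (SE 0.45, limma adjusted p = 0.629). Fgf21, a hormone released by the fasted liver, read 8.14, 7.48, 8.30, 8.64 and 8.79 in controls 11 to 15 and 7.12, 8.35, 8.72, 7.99 and 7.82 in the arrays labelled dn-cJun 16 to 20. The groups overlapped over most of their range, and the log2 fold change was -0.27 (SE 0.29, limma adjusted p = 0.719).

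Pex11a, which drives the division of peroxisomes, was the member of this class with the smallest p. It read 12.56, 11.99, 11.99, 12.35 and 12.43 in controls 11 to 15 and 12.48, 12.80, 12.71, 12.50 and 12.33 in the arrays labelled dn-cJun 16 to 20. Controls 11, 14 and 15 lay among the arrays labelled dn-cJun, and the log2 fold change was 0.30 (SE 0.12, limma adjusted p = 0.277). Vnn1, a pantetheinase, was the member lowest against the controls at -0.47 (limma adjusted p = 0.540). The acyl-CoA thioesterases Acot1 and Acot2 differed by -0.01 and -0.05, and a probe set that could not separate them differed by -0.02.

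Acsl5, which activates long-chain fatty acids, read 13.34, 13.39, 13.25, 13.27 and 13.15 in controls 11 to 15 and 13.32, 13.20, 13.36, 13.14 and 13.36 in the arrays labelled dn-cJun 16 to 20. The ranges nearly coincided, and the log2 fold change was -0.0036, with a 95% confidence interval from -0.15 to 0.14 (limma adjusted p = 0.988).

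When controls 14 and 15 were left out, 31 of 34 members were higher, with a median of 0.25, and 18 had an unadjusted p under 0.05 and were higher, against 7.03% of all tested genes. The adjusted threshold was passed by 0 members. The class medians were then 0.23 for the mitochondrial, 0.25 for the electron transfer, 0.19 for the carnitine shuttle and 0.12 for the peroxisomal members. The median of the members induced by PPARα turned from -0.05 to 0.27, with 6 of 7 higher. Cyp4a14 turned from -0.07 to 1.21 (limma adjusted p = 0.393), and Pdk4 was at 1.02 (limma adjusted p = 0.366). Against controls 11 to 13, controls 14 and 15 were themselves 3.22 higher for Cyp4a14 and 1.23 higher for Pdk4.

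The sign of the smaller values depended on how the arrays were scaled. On the intensities as deposited, the median of all tested genes was -0.19, 19 members were higher and 15 lower, and 28 of 34 lay above the median of all genes. The mitochondrial median was then 0.079 with 9 of 11 higher, and the medians of the carnitine shuttle and peroxisomal classes were -0.028 and -0.065. With array medians made equal, 28 of 34 members were higher. The peroxisomal Acaa1b and Ech1, both at -0.02 after quantile normalization, were then at 0.21 and 0.05. They were at 0.24 and 0.08 with each array divided by its step, and at 0.05 and -0.11 on the values as deposited. The split of the peroxisomal class by sign thus depended on the scaling. On the values as deposited 4 members had an unadjusted p under 0.05, all higher, where 1.32% of all tested genes were higher and 24.2% lower at that level. This count was 18 with each array divided by its step, where 7.49% of all tested genes were higher and 8.15% lower. It was 8 with eBayes without a trend, where 6.88% were higher and 7.07% lower. In each of the fits that left out 1 array, all 11 mitochondrial members were higher, and 8 to 14 members had an unadjusted p under 0.05, all higher. At that level, 6.26% to 8.42% of all tested genes were higher in these fits.

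Of the 34 members, 16 had more than 1 probe set, and 18 of 21 further probe sets were above the filter. Among these 18, 2 had the opposite sign to the probe set used, Cpt2 at -0.38 and Acaa1a at 0.34. Further probe sets of Cpt1a differed by 0.09 and 0.08 and those of Crat by 0.34 and 0.93. The Crat probe set at 0.93 had a limma unadjusted p of 0.0055 and an adjusted p of 0.210 in a fit over every probe set. Those of Acaa2 differed by 0.24 and 0.15 and those of Hadh by 0.24 and 0.006. The further probe set of Decr1 differed by 0.04 and that of Pex11a by 0.26. With the probe sets of a gene averaged, Cpt2 was at -0.16, Acadl at -0.021, Etfdh at -0.0032 and Cpt1a at 0.17. For Acadl and Etfdh the average took in a further probe set below the filter, at -0.16 and -0.23. Then 4 of 5 carnitine shuttle, 10 of 11 mitochondrial and 2 of 3 electron transfer members were higher.

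**Figure D5:**
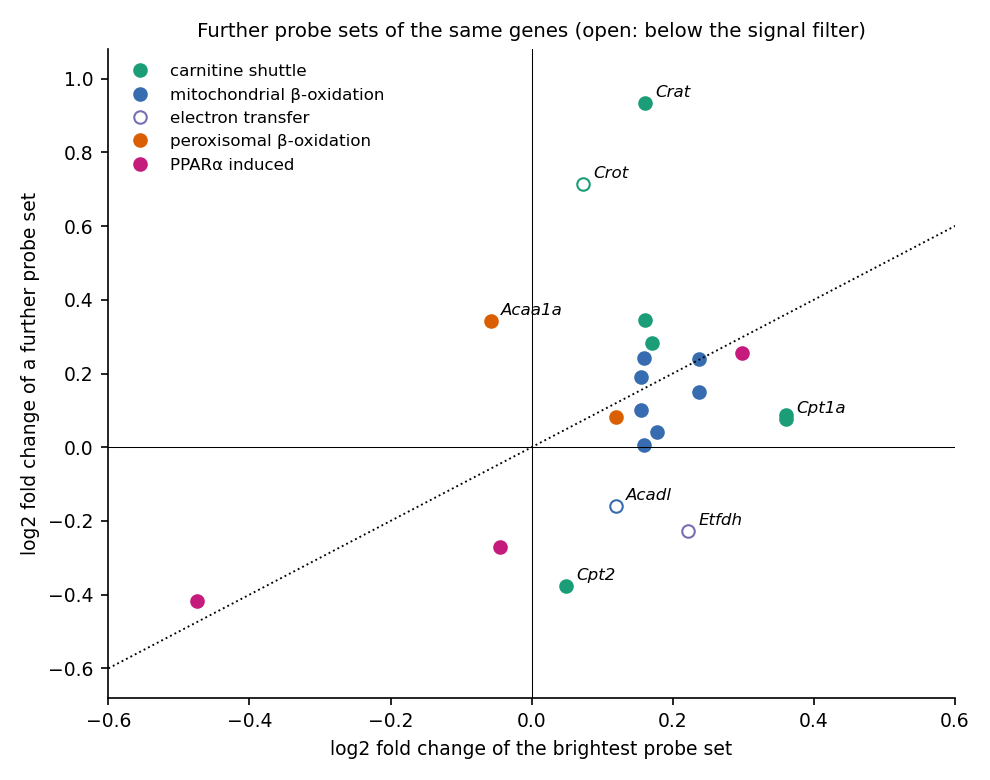
Log2 fold change of each of the 21 further member probe sets against that of the probe set used for the same gene, coloured by class, with open points below the signal filter and a dotted line of equal values. Of the 18 filled points, Cpt2 at -0.38 and Acaa1a at 0.34 have the opposite sign, and 1 of Crat lies highest at 0.93.

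Other genes of the pathway were examined by list, and 0 genes of any of the 6 lists passed the adjusted threshold in limma, where 0.777% of all tested genes did. Over all tested genes, 50.3% had a higher mean. At an unadjusted p under 0.05, 7.42% were higher and 7.47% lower. Of 10 further genes of fatty acid entry and activation, 9 were higher, with a median of 0.12, and 2 had an unadjusted p under 0.05. They were led by Acsm3, a medium-chain acyl-CoA synthetase, at 0.34 (limma adjusted p = 0.0935), and by Slc27a2, a very-long-chain acyl-CoA synthetase, at 0.13. Of 15 further mitochondrial acyl-CoA enzymes, 12 were higher, with a median of 0.11 and 4 at an unadjusted p under 0.05, among them the thioesterase Acot13 at 0.31 and the branched-chain enzyme Dbt at 0.45. Of 22 further genes listed as peroxisomal, 13 were higher and 9 lower, with a median of 0.03. At an unadjusted p under 0.05, 4 were higher, led by the membrane transporter Abcd3 at 0.18 and the phytanoyl-CoA hydroxylase Phyh at 0.19. Among the 9 lower was Pmp22, at -0.13, which encodes a myelin protein and not a peroxisomal one.

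Of 15 further genes induced by PPARα, 8 were higher and 7 lower, with 4 higher and 2 lower at an unadjusted p under 0.05. The shares of all tested genes at that level were 7.42% higher and 7.47% lower. The inhibitor of triglyceride lipase G0s2 was at 0.67 (limma adjusted p = 0.0994) and the monoglyceride lipase Mgll at 0.33. Of 21 genes listed as regulators, 14 were higher and 7 lower, with 6 higher and 1 lower at an unadjusted p under 0.05. The 1 lower was Cpt1c, a further carnitine palmitoyltransferase, at -0.70 (limma adjusted p = 0.189). Its mean was 6.66 in the controls and 5.96 under the dn-cJun label, near the filter level of 6.06. Mlycd, which removes the malonyl-CoA that inhibits Cpt1a, was at 0.29 (limma adjusted p = 0.111), and the coactivator Ncoa2 at 0.27. Of 3 genes of ketone body metabolism, 1 was higher and 2 lower, with 0 at an unadjusted p under 0.05. The 2 with the smallest p were Oxct1, which uses ketone bodies outside the liver, at -0.16 and Acat1, a thiolase of ketone body synthesis, at 0.05.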

How the data were processed

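The intensities are the authors' deposited values for 10 Affymetrix mouse arrays, on a linear scale; the software that summarised and scaled them was not given in the sources used here. On each array every intensity was a whole multiple of 1 step. Of 45101 probe sets, 34945 had 1 gene symbol in the platform annotation, 932 several and 9160 none.

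Values were taken as log2(intensity + 16), quantile normalized between arrays, and the 64 control probe sets were left out. The brightest single-symbol probe set stood for a gene. A gene was tested if its mean reached the 40th percentile over probe sets. The arrays labelled dn-cJun were compared with controls in limma 3.58.1 (R 4.3.3; lmFit, then eBayes with a trend on intensity). Tests were two-sided, p-values were adjusted by Benjamini-Hochberg over 12736 genes, and the threshold was 0.05. A fold change on this scale understates the change of dim genes. The code was tested on simulated data.

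Members and lists were chosen with earlier results of these data known. Full statistics are given for members with an unadjusted p under 0.05 and for the smallest p of each class; from each other list, the 2 genes with the smallest p are named, and values per array are given for a fixed set of members. Alternatives covered scaling, pseudocount, filter, probe set choice, eBayes options, threshold and arrays left out.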

Additional observations from a re-analysis of the deposited data

Results flagged for a closer look

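dn-cJun 17 stood far above the other arrays of its group for Hadhb, at 13.87 with the next array at 13.64 and the lowest at 13.55. The same array stood apart for Etfa, at 13.90 with the next at 13.79 and the lowest at 13.77. Chance sets apart about 1 in 20 groups of 5 arrays in this way, and all 34 members were examined in both groups.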

How the results depend on the processing

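The labels number the controls 11 to 15 and the arrays labelled dn-cJun 16 to 20. No paired analysis was possible because the groups share no replicate number. The count of all genes past the threshold, 99, became 490 (22 higher, 468 lower) on the values as deposited, 65 with array medians made equal, 44 with probe sets averaged per gene, 170 with every probe set as a unit, 9 with eBayes without a trend, 250 at an adjusted p under 0.1 and 52 without controls 14 and 15. Leaving out 1 array gave 13 (without dn-cJun 17) to 199 (without control 12). The count of members past it, 0, became 1 (Acadm) with arrays divided by their step, 1 (Acadm) with array weights, 3 (Acadm, Acaa2 and Etfb) at an adjusted p under 0.1, and 0 to 1 over the fits without 1 array, the 1 being Acaa2 without control 12. On the values as deposited the median log2 fold change was -0.028 for the carnitine shuttle, 0.079 for mitochondrial beta-oxidation, -0.065 for peroxisomal beta-oxidation and 0.11 for electron transfer; divided by the step, it was 0.27 for mitochondrial beta-oxidation and 0.30 for electron transfer. Without 1 array, the class medians ran from 0.05 to 0.20 (carnitine shuttle), 0.13 to 0.19 (mitochondrial), -0.0059 to 0.10 (peroxisomal), 0.19 to 0.28 (electron transfer) and -0.22 to 0.19 (PPARα induced). Acsl5, at -0.0036, turned to 0.033 with equal medians, 0.065 with the step and 0.017 with array weights, and ran from -0.036 to 0.029 without 1 array. With probe sets averaged, Etfdh turned to -0.0032, Cpt2 to -0.16 and Acadl to -0.021, where the further probe sets of Etfdh and Acadl were below the filter. Acaa1a, at -0.06, turned to 0.32 without control 12 and 0.33 without control 13, where another probe set was its brightest, and to 0.04 without dn-cJun 17. The cause of the other shifts was not tested.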
